A study of Mus musculus with 1012 samples.

Results

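By their labels, 9 adipose stem and progenitor cells (ASPCs) were each sampled 2 times while alive, once untreated and once after 2 days in an adipogenic cocktail. They were found through the labels of the samples, which give an extraction pair and an order: all Live-seq ASPC samples of batch 9_4 with both members of a pair were taken. This gave 18 of the 1012 samples of the study, in 9 pairs, called cells 1 to 9 here. The pairing rests on these labels. The study kept fewer pairs than the labels give after quality control and recovery of each cell's barcode, and the sources used here do not say which was left out, so that 1 or more of the 9 may not be a verified pair. What leaving out each cell in turn did is given below. Live-seq draws part of the cytoplasm of a living cell into a hollow microscopic probe (fluidic force microscopy) and sequences its polyadenylated RNA with an enhanced Smart-seq2 protocol, so that the cell can be followed and sampled again. The study set such biopsies beside whole-cell libraries of macrophage-like RAW cells, brown preadipocytes and ASPCs.

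The ASPCs were primary cells of the subcutaneous fat of young adult female C57BL/6J mice, grown in high-glucose DMEM with fetal bovine serum. Part of them carried a lentiviral barcode with green fluorescent protein (EGFP), and fluorescent cells were chosen for the biopsies and relocated on an image map. The first biopsy had the treatment label not_treated and the second DMIR_treated, where DMIR stands for dexamethasone, 3-isobutyl-1-methylxanthine, insulin and rosiglitazone. The labels do not say from how many animals the 9 cells came, and all of them belong to a single batch, with nothing to say that they came from separate cultures. Cells are therefore not replicates of the treatment, time in culture and the earlier biopsy cannot be told apart from the cocktail, and differences between before and after are given as values with no p. A further 34 untreated and 28 induced Live-seq ASPC samples of batch 9_4, and 44 untreated and 35 induced whole ASPCs of batch 9_1, served for comparison.

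ASPCs are fibroblast-like cells of the fat stroma that can turn into adipocytes. Dexamethasone acts on the glucocorticoid receptor, 3-isobutyl-1-methylxanthine keeps cyclic AMP high, insulin drives glucose uptake and fat synthesis, and rosiglitazone is a ligand of PPARγ, the central transcription factor of fat cells. On the way to an adipocyte a progenitor is known to take its actin stress fibres apart, change its matrix, and later turn on genes of lipid storage such as Fabp4, which encodes a fatty acid carrier.

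The paired libraries held 322328 to 1058173 counts before and 386096 to 834520 counts after the cocktail. Between 2628 and 8445 genes were detected before (median 6019), and between 1964 and 8333 after (median 4281), with fewer genes after in 6 of 9 cells. Levels are CPM, the share of a gene scaled to 1e+06 of the counts left after negative-control and ribosomal protein genes were taken out, and these were 139822 to 828734 per library before and 232581 to 549214 after. The first library of cell 1 stood apart, with 79.6% of its counts in the genes taken out and 24.6% of the rest from the mitochondrial genome. The libraries of cells 1, 2, 3 and 9 after the cocktail had under 3000 detected genes, as had the first of cell 1, and results are also given for the other 5 cells. No 2 of the 18 libraries were copies of each other, the highest Pearson r between any of them being 0.81.

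As a check of the label, the progenitor surface marker Ly6a had counts in 9 of 9 samples both before and after. Other members of the list of 12 progenitor markers were found less often. Mfap5 had counts in 9 samples before and 7 after, Thy1 in 8 and 7, F3 in 8 and 5, and Pdgfrb in 7 and 5. Pdgfra had them in 5 and 4, Icam1 in 5 and 2, Cd55 in 3 and 2, Cd34 in 1 and 1, and Pi16 in 0 and 1. Dpp4 and Dlk1 had no counts in any of the 18 samples. The macrophage list summed to at most 439 CPM and the endothelial list to at most 57.5 CPM in a sample, with 5 of 10 and 6 of 8 members at 0 in all samples. Mesothelial markers summed to at most 205 CPM before, and were at 0 in all samples after. EGFP had at least 2 counts in 6 of 9 samples before (exact 95% interval of the share 29.9 to 92.5%) and in 7 of 9 after (40.0 to 97.2%). Cells 3, 5, 6 and 9 had it both times, cells 2 and 8 only before, and cells 1, 4 and 7 only after. At least 2 counts were also found in 24 of 37 biopsies of the batch with an order but no partner. The same held for 10 of 25 biopsies whose label gives no order (8 of 12 untreated and 2 of 13 induced) and for 61 of 79 whole cells. EGFP counts thus do not set the paired samples apart from these groups, except that few induced biopsies without an order had them.

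Within-cell differences were taken as log2(CPM + 100) after minus before. For a gene well above 100 CPM 1 unit is about a doubling, and for a gene below that level it takes more than a doubling. A gene counted as well detected where 9 or more of the 18 samples had 2 counts of it or more, and 4504 genes did. It was called when all 9 differences had the same sign and their median was at least 1 in size. By this rule 4 genes were called higher after the cocktail (0.0888% of the 4504) and 26 were called lower (0.577%). Without the size limit, 5 genes were higher in all 9 cells (0.111%) and 45 were lower (0.999%). More genes were lower than higher. The median difference was above 0 for 863 genes (19.2%) and below 0 for 2697 (59.9%), and 15.9% were lower and 2.4% higher in at least 7 of 9 cells. The number of detected genes was lower as well, and its part in this was not tested. The median difference over all well-detected genes was -0.09, and with other scalings it was -0.03 (TMM) and -0.003 (DESeq2 size factors). Scaled by DESeq2 size factors, 4 genes were called higher and 10 lower, and by TMM 4 and 18. Of the genes called here, 3 of 4 higher and 10 of 26 lower were called with DESeq2 size factors as well, and 2 of 4 and 16 of 26 with TMM.

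The counts depended on single cells, since with fewer cells fewer signs have to agree. Without cell 1, 55 genes were called lower, and without cells 2, 7 or 9 the genes called higher were 7, 8 and 7. In the 5 cells with at least 3000 detected genes in both libraries 31 genes were called higher and 100 lower of 6268, among them all 4 genes higher and 20 of the 26 lower in the 9 cells. These 5 are part of the 9, so a gene with 1 sign in all 9 cells has it in the 5 as well. Only the limits of detection and size could lose a call, and the overlap is no support. The further genes higher in all 5 included the metallothionein Mt1 (median difference 3.87), the desaturase Scd1 (2.83), the collagens Col3a1 (2.83) and Col4a1 (2.82), Ddr2 (2.21), which encodes a collagen receptor, and Sgk1 (1.68). The further genes lower in all 5 included the tropomyosins Tpm1 (-3.68) and Tpm2 (-3.12), Actg1 (-2.70), which encodes a cytoplasmic actin, and Anxa5 (-2.67), which encodes a membrane-binding annexin.

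The 4 genes higher in all 9 cells were Selenop, Fth1, Mt2 and Gda. Selenop (chr15:3268547-3280508, GRCm38) encodes a secreted selenium carrier. In cells 1 to 9 its level was 1666, 1715, 262, 241, 39.6, 83.6, 0, 98.04 and 635 CPM before, and 3039, 11352, 2391, 7091, 19706, 654, 1023, 12247 and 11109 CPM after. The median difference was 3.49 (SD 1.95, n = 9 cells), from 0.83 in cell 1 to 7.15 in cell 5, and the groups overlapped, because cells 6 and 7 after did not reach the level of cells 1 and 2 before.

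Fth1 (chr19:9980598-9985098), the heavy chain of the iron store ferritin, stood at 27849.7, 13059.7, 20713, 30993, 2900.3, 7214, 21082, 6404 and 46287 CPM before and at 127470.0, 204686, 136047, 97488, 72558, 54082, 60726, 62769 and 81089.9 CPM after. It was the single gene of the 4504 (0.0222%) with all 9 samples after above all 9 before, with a median difference of 2.71 (SD 1.22). Fth1 has processed copies elsewhere in the genome, as have Actb, Tmsb4x and Pfn1 below, and how their reads were split by unique mapping is uncertain.

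Mt2 (chr8:94172664-94173568), a metallothionein that binds zinc and copper, was at 0 to 243 CPM before (median 11.9) and at 102.2 to 1001 CPM after (median 815). Its median difference was 1.70 (SD 1.06), and the smallest, 0.14, was that of cell 2. Gda (chr19:21391307-21473445), guanine deaminase, had no counts in 5 of the 9 first biopsies and counts in all 9 second ones. Cell 2 reached 3552 CPM and cell 7 only 29.3 CPM, and the median difference was 1.35 (SD 1.47). The call of Gda was lost with both other scalings and that of Mt2 with TMM, while Selenop and Fth1 kept theirs.

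**Figure D1:**
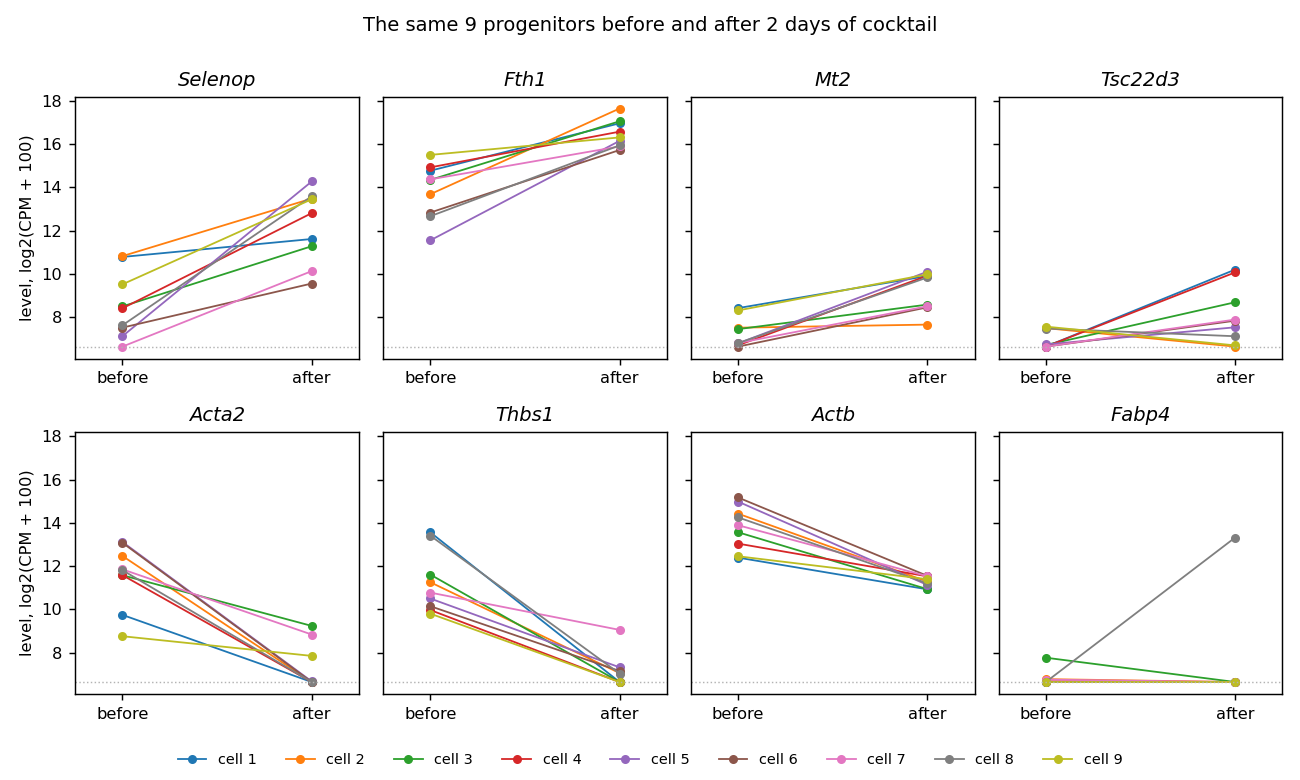
Level of 8 genes in the 9 cells, as log2(CPM + 100), before and after 2 days of cocktail; each line is 1 cell and the dotted line is 0 CPM. All 9 lines go up for Selenop, Fth1 and Mt2 and down for Acta2, Thbs1 and Actb, 6 of 9 go up for Tsc22d3, and Fabp4 goes up in cell 8 alone.

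Among the 26 genes lower in all cells, those that encode actins or proteins that bind actin are taken first. Acta2 (chr19:34241090-34255590), smooth muscle actin, was the gene with the largest median difference. It stood at 758, 5560.3, 2957, 2964, 8773, 8539, 3591, 3492 and 333 CPM before and at 0, 0, 503, 0, 1.82, 0, 357, 0 and 131 CPM after. Counts were thus left in 4 of 9 cells, with differences from -6.45 in cell 5 to -0.91 in cell 9 (median -4.94, SD 1.97), and cell 9 had the lowest level at the start.

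Actb (chr5:142903115-142906754), the cytoplasmic beta actin, was at 5271, 21866, 12009, 8310.3, 32220.4, 36765, 15071, 19403 and 5509.6 CPM before and at 1847, 2394, 1857, 2848, 2141, 2896, 2859.9, 2258 and 2592 CPM after. The groups did not overlap, and the 9 cells, which had spanned 5271 to 36765 CPM, all lay between 1847 and 2896 CPM after the cocktail. The median difference was -2.63 (SD 1.00). Cnn2, a calponin, had a median difference of -2.95 (SD 1.42), with a drop of no more than 0.12 in cell 1, where it was low from the start at 35.8 CPM.

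Tmsb4x, which holds actin monomers, was at 805 to 5792 CPM before and at 140.2 to 1182 CPM after (median difference -2.21, SD 1.11). Pfn1, the actin monomer binder profilin, had a median difference of -1.46 and Actr3, a subunit of the Arp2/3 complex that branches actin, one of -1.08. Other proteins sit where actin meets the membrane, namely zyxin (Zyx, -2.54), Lasp1 (-2.43), testin (Tes, -1.86) and the kindlin Fermt2, whose median only just reached the limit of the rule. Fhl2, a LIM protein of adhesions, had a median difference of -1.42. With TMM or DESeq2 size factors Zyx, Actr3, Fermt2 and Fhl2 were not called, whereas Acta2, Actb, Cnn2, Tmsb4x, Lasp1 and Tes were called with both. The call of Pfn1 was lost with DESeq2 size factors.

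Among matrix and secreted proteins, Thbs1 (chr2:118111876-118127133), thrombospondin, had the second largest median of the 26 genes called lower. It stood at 11994, 2346, 3026, 904, 1351, 1035, 1653, 10778 and 794 CPM before and at 0, 33.3, 0, 0, 60.1, 42.3, 431, 31.1 and 0 CPM after, so that no sample after reached the lowest before. Its median difference was -3.33 (SD 1.70), and cells 1 and 8, which started highest, had the largest, -6.92 and -6.37. Timp3, an inhibitor of matrix metalloproteases, had a median of -2.70 (SD 1.63), from -5.34 in cell 8 to -0.34 in cell 7. The lectin Lgals1 had one of -2.28 (SD 0.97) and Inhba, a subunit of activin, one of -1.36. The call of Timp3 was lost with TMM and that of Inhba with DESeq2 size factors.

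The membrane proteins Tm4sf1 and Emp3 showed no overlap between the groups. Tm4sf1, a tetraspanin-like protein, was at 159.1 to 994 CPM before and at 0 to 64.1 CPM after, with a median difference of -2.21 (SD 0.70). Emp3 was at 124 to 744 CPM before and at 0 to 58.6 CPM after (-1.51, SD 0.61). With Actb and Thbs1 these were the 4 genes (0.0888%) with every sample after below every sample before. The other 9 genes, with medians from -1.63 to -1.01, were Lrrfip1, the tRNA synthetase Eprs, the RNA ligase Rtcb, the oxysterol-binding protein relative Osbpl9, the ESCRT subunit Chmp2a, Sh3bgrl3, the proline synthesis enzyme Aldh18a1, and the endoplasmic reticulum proteins Pdia3 and Rcn1. None of these 9 was called with DESeq2 size factors, nor was Emp3. With TMM, Eprs, Rtcb, Chmp2a, Pdia3 and Rcn1 were not called either. Of the 26 genes, Emp3 and the 13 with smaller medians lie outside the 12 largest that were to be named. They were named after their values were seen.

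**Figure D2:**
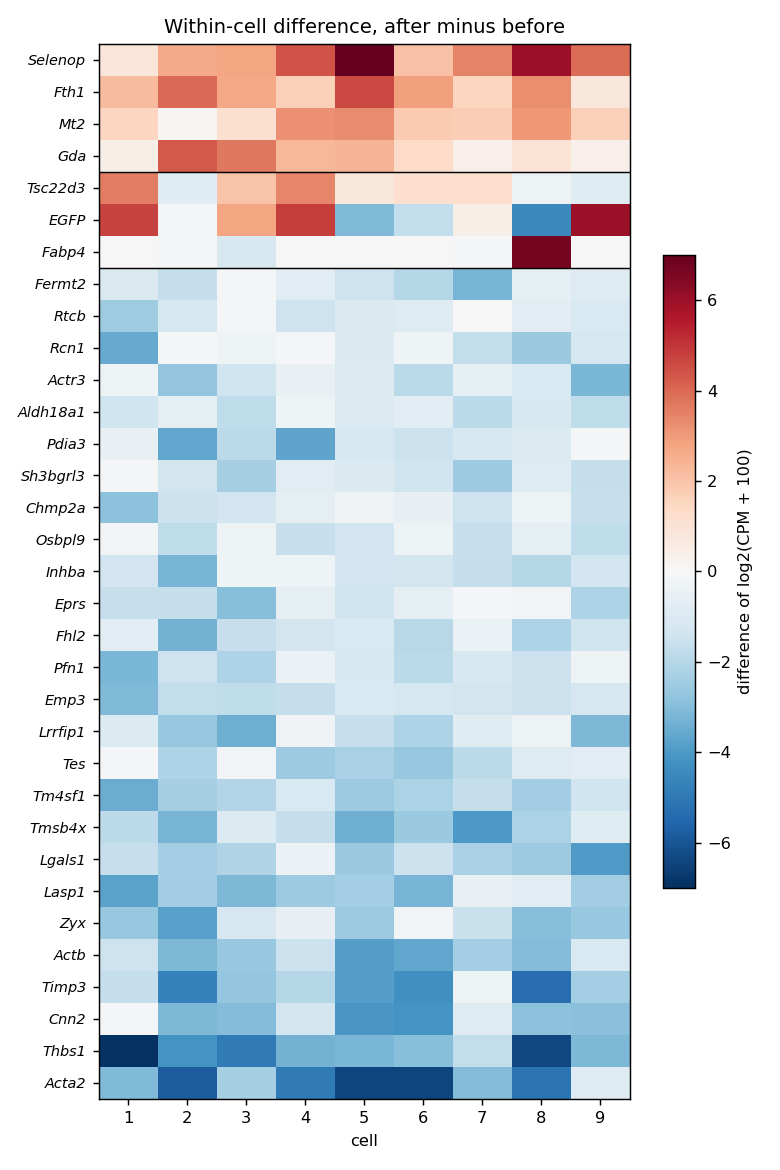
Difference after minus before, in units of log2(CPM + 100), of the 4 genes called higher (top), Tsc22d3, EGFP and Fabp4 (middle) and the 26 genes called lower (bottom), in cells 1 to 9. Red is higher and blue lower after; the top and bottom blocks have a single colour by the rule that chose them, while EGFP and Tsc22d3 show both.

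The actin cytoskeleton list, 12 genes of smooth muscle type with 10 of them well detected, was described as a whole. In cells 1 to 9 its members summed to 5399.7, 14411, 11521, 9842, 17081, 23075, 10618, 13531 and 3249 CPM before and to 1926, 489.8, 3904, 3708, 867, 1181, 3203, 1537 and 2303 CPM after. The sum was lower after in 9 of 9 cells, least so in cell 9. Acta2 was its only called member, but 9 of the 10 were lower in at least 7 cells, beside 15.9% of all well-detected genes, and the list median was -1.38, beside -0.09 over all genes. Tpm1 (-3.48), Tpm2 (-3.16) and the myosin light chain Myl9 (-2.35) were lower in 8 of 9 cells each. The exception was cell 9 for both tropomyosins, with differences of 0.78 and 0.46, and cell 7 for Myl9.

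Genes lower in all cells and members of this list were searched for the CArG box, the element bound by serum response factor, because several are known targets of it. RefSeq promoter windows on GRCm38.p6, from 250 bases before to 50 after a gene's start, were at hand for 21 of the 26 genes and were read on both strands. The box stood in 4 of these 21 genes (19.0%), in 50 of the 3564 well-detected genes with a window (1.4%) and in 488 of all 27025 (1.81%). Of the 10 list members with a window, Myl9 and Vcl held it. The motif was chosen with the called genes known, and a match of letters is no evidence of binding. The boxes are given with the bases around them, the motif in capitals, to show where they lie.
Cnn2, chr10:79988534-79988563, plus strand: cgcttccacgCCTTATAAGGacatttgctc
Fhl2, chr1:43163973-43164002, minus strand: gcgcgtgtgtCCTTATATGGtcaaatgact
Fhl2, chr1:43196838-43196867, minus strand: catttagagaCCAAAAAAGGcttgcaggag
Fermt2, chr14:45530250-45530279, minus strand: tccttcatttCCATAAAAGGgcagcgctcc
Chmp2a, chr7:13034998-13035027, minus strand: tgtgggCCTAATTTGGttcgagccaagcac
Myl9, chr2:156775293-156775322, plus strand: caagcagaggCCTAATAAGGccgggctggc
Vcl, chr14:20929161-20929190, plus strand: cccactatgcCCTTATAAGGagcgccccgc
The box of Cnn2 began 56 bases before the start site and the nearer of the Fhl2 boxes, which lie at different starts of the gene, 31 bases before it.

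The glucocorticoid list holds 12 genes that dexamethasone is known to induce, of which 9 were well detected. Its sum was 1759, 1637, 1569, 619.6, 1668, 415, 819, 806 and 2557 CPM before and 8724, 716, 5026, 8123, 9789, 4427, 5005, 7231 and 7019 CPM after. It was higher after in 8 of 9 cells, with cell 2 the exception. The sum leans on Mt1, which alone had a median of 388 CPM before and 4373 CPM after, beside 1569 and 7019 CPM for the sum. The list median was 1.12, 4 of 9 members were higher in at least 7 cells, beside 2.4% of all well-detected genes, and none was lower in as many. Mt2 was the only member higher in all 9.

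Tsc22d3, known as GILZ, a direct target of the glucocorticoid receptor, was at 0, 80.8, 5.36, 0, 7.21, 0, 0, 78.4 and 89.7 CPM before and at 1078, 0, 314, 977, 85.6, 129, 137.7, 39.4 and 3.96 CPM after. It was higher in 6 of 9 cells, with a median difference of 1.20 (SD 1.66), and lower in cells 2, 8 and 9. These 3 had the highest levels of all before the cocktail. Mt1, the neighbour of Mt2, was higher in 8 of 9 cells (median 1.72), again without cell 2. Sgk1, a kinase, was higher in 7 of 9 (median 1.13) and had the same value of 0 both times in cell 1.

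The palindromic glucocorticoid receptor element, searched on both strands as AGAACA, 3 free bases and TGTNC, stood in the promoter windows of 42 of 27025 genes (0.155%). In the list it was found in Sgk1 alone of 11 genes with a window, which is the only match among all well-detected genes, and the sequence is shown for that reason, with the element in capitals.
Sgk1, chr10:21993693-21993722, plus strand: atgcggaaAGAACAGAATGTTCtcggagat

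Few genes of lipid storage were well detected. Of the 16 genes on the list of PPAR targets and lipid storage, 3 were, and Cd36, Plin1, Plin4, Adipoq and Cidec had no counts in any of the 18 samples. For Adipoq, 0 of 9 samples after allows a share of up to 33.6% of biopsies with counts of it (exact 95% bound), and does not bound the share of cells that express it, since these are partial biopsies. Fabp4 was at 0, 9.65, 118, 2.15, 0, 0, 7.91, 0 and 0 CPM before. After the cocktail it stood at 10113 CPM in cell 8 and at 0 in the other 8 cells, where 3 counts would have been 5.46 to 12.9 CPM. It was therefore higher in 1 cell and lower in 4.

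Cell 8 differed from the others in further members of the list. Its summed level went from 455 to 15680.4 CPM, while in the other 8 cells the list summed to 272 to 1075 CPM before and 0 to 1462 CPM after. After the cocktail cell 8 had 2828 CPM of Plin2, a coat protein of lipid droplets, against 304 before. The secreted lipase inhibitor Angptl4 stood at 1574 CPM and the lipoprotein lipase gene Lpl at 931 CPM, both from 0. Scd1, the desaturase that makes monounsaturated fatty acids, was at 4804 CPM after against 131 before in cell 8, also the highest of the 9. This cell was singled out after its values were seen. Whole cells of batch 9_1 held a like case, with Fabp4 at 9495 CPM in 1 of the 35 induced cells and a median of 0, while the highest of the other 28 induced biopsies was 292 CPM.

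**Figure D3:**
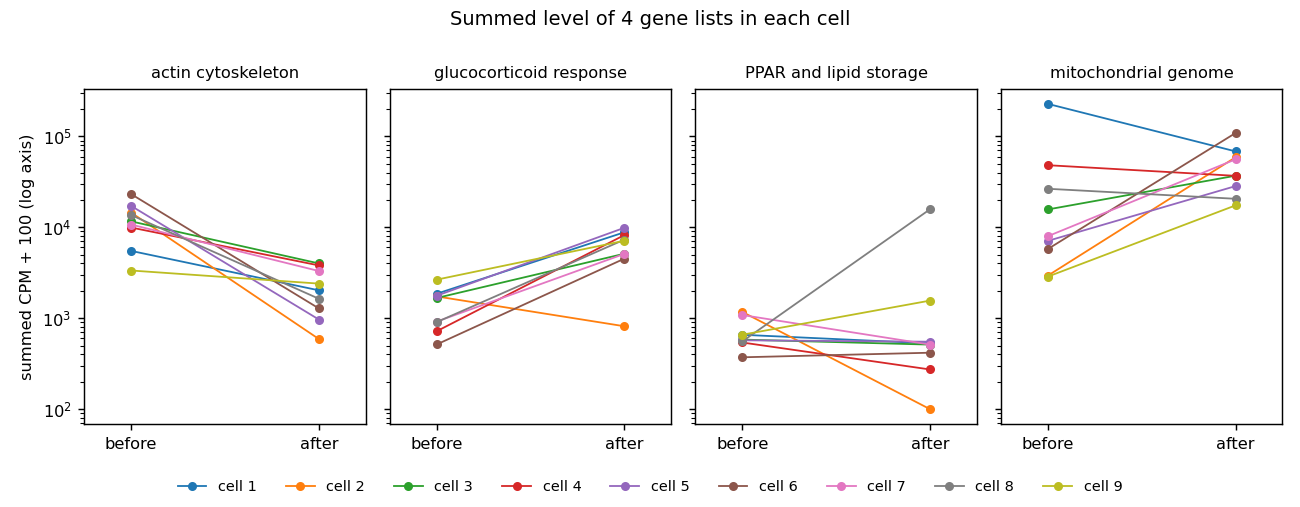
Summed CPM of 4 gene lists in each of the 9 cells before and after, on a log axis after adding 100. The actin cytoskeleton lines all go down, 8 of 9 glucocorticoid lines go up, the lipid storage list lies far above the other cells in cell 8, at 15680.4 CPM, and 6 of 9 mitochondrial lines go up.

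Of the 12 adipogenic transcription factors 5 were well detected, and the list median was -0.02. Ebf1, a factor of early B cells and fat precursors, was the one found most often, with counts in 8 of 9 samples both times, medians of 88.2 CPM before and 102.6 CPM after, and a median difference of -0.31. Cebpd, an early factor of the program, was higher in 7 of 9 cells, with a median difference of only 0.35. Cebpb had a median of -0.02 and Nr3c1, the glucocorticoid receptor itself, one of -0.50. Pparg had counts in 1 sample before, that of cell 2 (68.8 CPM), and in 1 after, that of cell 8 (74.6 CPM). Cebpa had counts in none before and in 1 after, again that of cell 8 (22.8 CPM). This library also had the most detected genes of the 9 after the cocktail, 8333. Of 12 genes on the cyclic AMP list 2 were well detected, Fosl2 and Pde4d, with medians of 0.05 and 0.00.

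Genes of sterol and fatty acid synthesis went in both directions. Scd1 was higher in 7 of 9 cells (median 1.68, SD 2.12) and its relative Scd2 in 6 of 9 (0.75), whereas Fasn, fatty acid synthase, was lower in 7 of 9 (-1.03), and none of the 10 well-detected members was called. Of the 14 well-detected matrix genes Thbs1 alone was called. Col1a2 was lower in 7 of 9 cells with a median of -2.67, and Dcn (-1.33) and Ccn2 (-1.54) in 8 of 9. Of the 14, 5 were lower in at least 7 cells, beside 15.9% of all well-detected genes. For Col1a2, Dcn, Ccn2 and Thbs1 the differences were smaller or of the other sign in other samples. Their mean within-cell differences were -1.72, -1.32, -1.11 and -4.09 in that order. In other biopsies the difference of means was -0.28 for Col1a2, 0.26 for Dcn and 0.04 for Ccn2, and in whole cells -0.52, 0.08 and -0.38. For Thbs1 it was -1.13 and -1.89. Of the 14 matrix genes, 10 had a higher mean after induction in other biopsies and 9 in whole cells. Sparc, the most abundant, had medians of 8664 CPM before and 6739.6 CPM after and was higher in 5 cells.

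Progenitor markers had a list median of -0.70 over 6 well-detected members. F3, tissue factor, was lower in 8 of 9 cells (-1.88), Thy1 in 7 (-1.42) and Mfap5 in 7 (-1.20), while Ly6a was higher in 5 and lower in 4. In the division list, cyclin D1 (Ccnd1) was lower in 8 of 9 cells (-2.14, SD 1.35) and the inhibitor Cdkn1a in 7 (-1.56), with cell 1 going the other way in both and cell 2 in Cdkn1a. Immediate early genes had medians between -0.59 and -0.30 for the 4 that were well detected.

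Mitochondrial transcripts were higher in 6 of 9 cells, those of cells 1, 4 and 8 being lower. The list summed to 2765 to 227854 CPM before (median 7870) and 17315 to 108687 CPM after (median 36817), and its median difference was 1.46 over 8 well-detected genes. Malat1, an RNA held in the nucleus, differed widely between biopsies. It was at 15147, 78191, 22308 and 22482 CPM in cells 5 to 8 after the cocktail, which also had the most detected genes, 6952 to 8333. The other 5 cells had at most 114.1 CPM of it and at most 4281 genes. Whether this bears on the differences of other genes was not tested.

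The genes called in the 9 cells were followed in samples that the calls had not used. In the other biopsies of batch 9_4 all 4 genes called higher had a higher mean in the 28 induced than in the 34 untreated samples, as did 48.7% of all well-detected genes, and 22 of the 26 called lower had a lower mean, beside 51.3%. In whole cells of batch 9_1 it was 4 of 4, beside 40.9%, and 26 of 26, beside 59.1%. By at least 1 unit, 3 of the 4 were higher in the other biopsies (1.27% of all) and 3 in whole cells (1.27%), and 14 of the 26 were lower in the other biopsies (1.24% of all) and 12 in whole cells (1.53%). Not all lists went the same way as in the pairs. The list of sterol and fatty acid synthesis, with a median of -0.26 in the pairs, had 0.22 in other biopsies and -0.08 in whole cells. The matrix list, with a median of -0.47 in the pairs, had 0.14 in other biopsies and 0.08 in whole cells, and the immediate early list, with -0.45, had 0.13 and 0.17. The division list, with -0.57, had 0.00 and 0.01. Of its 7 well-detected members 4 were higher in each set, and 3 were lower. The lower ones were Ccnd1 (-1.90 in other biopsies and -1.87 in whole cells), Cdkn1a (-1.46 and -1.36) and Ccnd2 (-0.95 and -0.71). The actin cytoskeleton list had -0.69 and -0.92, and the glucocorticoid list 1.10 and 1.00. Among called genes, the 4 that did not go the same way in other biopsies were Eprs (0.50), Osbpl9 (0.30), Pdia3 (0.16) and Rtcb (0.11).

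Sizes differed from gene to gene. Acta2 had a difference of means of -3.34 in other biopsies and -3.20 in whole cells. Selenop had 2.94 and 2.47, Mt2 1.97 and 2.09, and Actb -2.11 and -2.41. Zyx, with a median of -2.54 and a mean of -2.01 in the 9 cells, had only -0.36 and -0.58. Tsc22d3 had 0.85 in other biopsies and 1.00 in whole cells, beside its median of 1.20 in the pairs. Fasn, lower in 7 of 9 paired cells, was higher on average in both, by 0.74 in each.

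**Figure D4:**
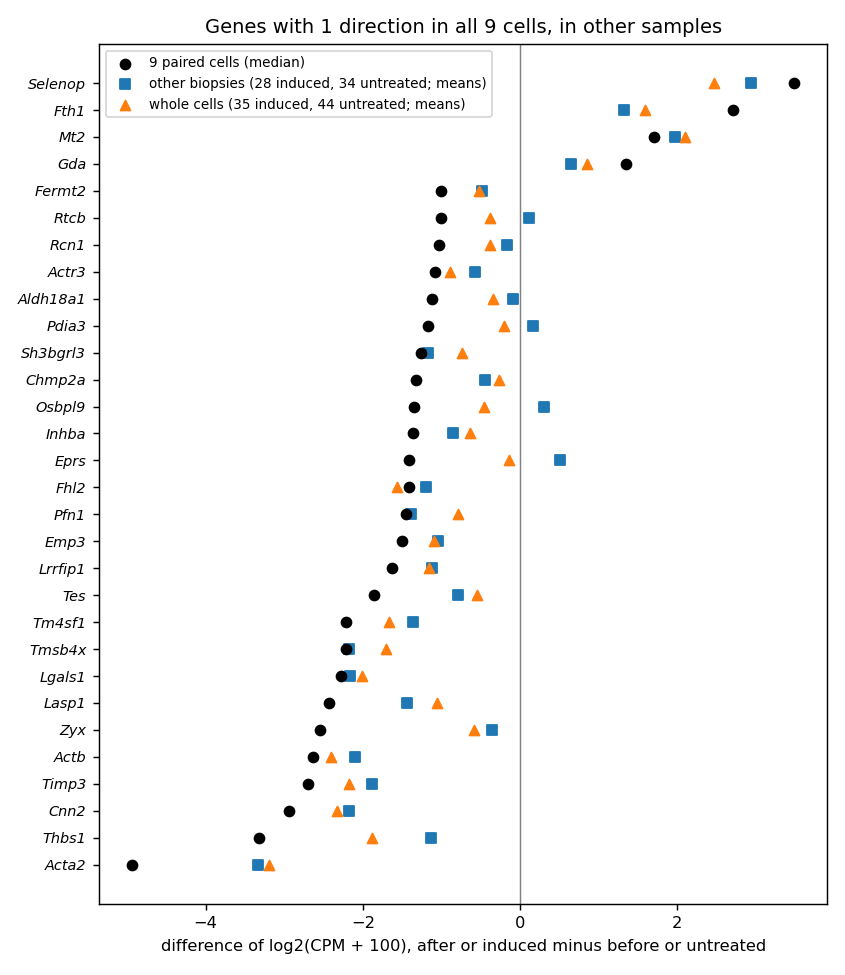
Differences of log2(CPM + 100) of the 30 called genes: median of the 9 within-cell differences (black), difference of means between 28 induced and 34 untreated other biopsies of batch 9_4 (blue squares), and between 35 induced and 44 untreated whole cells of batch 9_1 (orange triangles). The 4 higher genes lie right of 0 in all 3, and the 26 lower genes lie left of 0 except for 4 blue squares.

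Induced cells sampled for the second time were set beside induced cells whose label gives no order. The glucocorticoid list had a median sum of 7019 CPM in the 9 second biopsies of the pairs (716 to 9789), 6156 CPM in 15 further second biopsies without a first one in the data (3215 to 13823), and 6274 CPM in 13 cells with no order (2152 to 9803). The actin cytoskeleton list had medians of 1926, 3365 and 2830 CPM in the same order. These ranges overlapped throughout.

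The design also asks if a cell kept features of its own through the treatment. The mean of each gene over the 9 samples of its group was taken away, and Pearson's r over the 4504 genes was computed for each of the 81 combinations of a sample before and a sample after. The 9 true pairs had a mean r of -0.004 (SD 0.076), from -0.158 in cell 7 to 0.114 in cell 8. The 72 other combinations had a mean of 0.002 (SD 0.062) and ran from -0.173 to 0.196. The difference, -0.006, was no larger than that of most other pairings (p = 0.827, two-sided exact permutation test over all 362880 pairings, which cannot give less than 2.8e-06).

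The true partner had the highest r of 9 candidates for 1 first biopsy, that of cell 1, and for 1 second biopsy, that of cell 8. Its median rank was 4 in both directions. Among all 37 induced samples of the batch, the partner of a first biopsy ranked between 6 and 35 (median 26), and among all 43 untreated samples, that of a second biopsy ranked between 7 and 36 (median 27). Without the means taken away, r was 0.45 on average in true pairs (0.34 to 0.63) and 0.46 in the others (0.27 to 0.66).

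**Figure D5:**
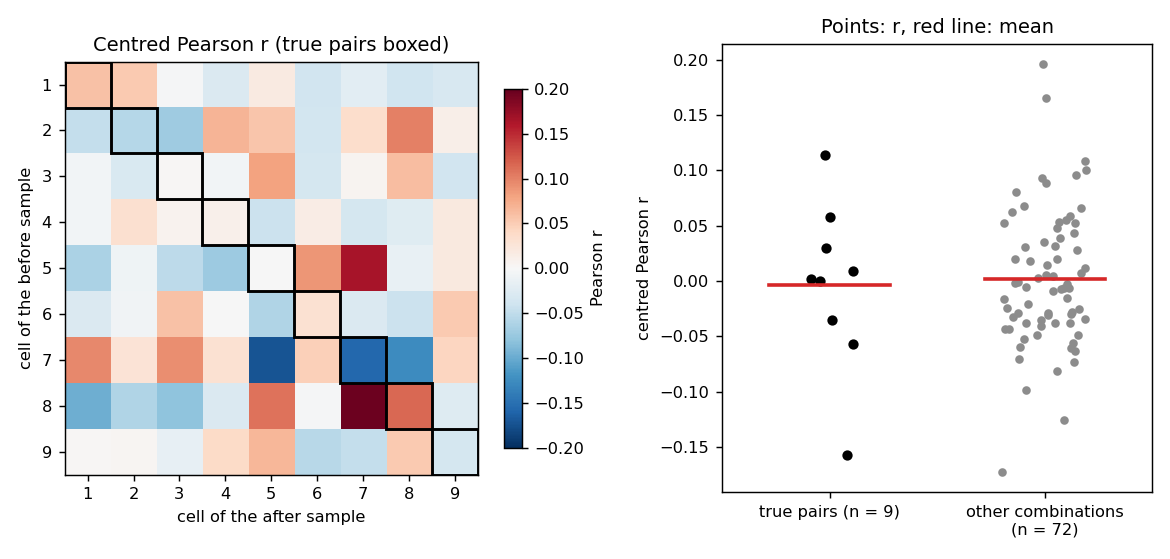
Left: Pearson r over 4504 genes, group means taken away, for each sample before (rows) with each sample after (columns), the 9 true pairs boxed. Right: the 9 values of true pairs and the 72 others with their means (red), -0.004 and 0.002, which lie within each other's range.

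Single measures of a cell did not carry over visibly either. EGFP, whose level could mark a transduced cell, was at 0, 7.24, 96.4, 0, 832, 240.5, 0, 2192 and 32.2 CPM before and at 2591, 0, 1243, 2749.8, 10.9, 4.70, 32.2, 0 and 8311 CPM after. The highest before, cell 8, had none after, and 2 of the 3 cells at 0 before, cells 1 and 4, were among the 3 highest after. Over the 9 cells Pearson's r of its log2 levels was -0.52 and Spearman's rho -0.54, given as a description. The number of detected genes had an r of 0.23 and the mitochondrial percentage one of 0.22.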

How the data were processed

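Read counts per gene of 1012 libraries were deposited by the authors as raw counts. Per the labels and the study's methods, reads of 75 bases were aligned to GRCm38 (mm10) with STAR 2.6.1c. Unique reads were counted with HTSeq 0.10.0 against Ensembl release 87, without regard to strand and without molecular identifiers. Overlapping and antisense genes therefore cannot be told apart. The exact intervals of a share treat samples as independent draws, although the paired cells all belong to a single batch. The deposited table has 30452 features, and 159 of its columns were used, the other 853 not. Here 20 genes seen in negative controls and 91 of ribosomal proteins were dropped, and levels were log2(CPM + 100), the same scale up to a constant as 10000 counts per library with a pseudocount of 1. Gene names and positions come from GENCODE vM21.

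Members and gene lists were chosen with earlier results of these data known. Genes named by rule are Tsc22d3, Fabp4, EGFP, up to 12 called genes in each direction and up to 4 well-detected members of each list with the largest median, others being singled out after their values were seen. The pair labels set the blocks, since both samples come from 1 cell. The resemblance test was two-sided and exact. Alternatives were TMM (edgeR 4.0.16), DESeq2 1.42.0 size factors, other pseudocounts and filters, thinning and leaving out each cell. Python 3.11.15, NumPy 2.4.6 and SciPy 1.17.1 were used. Calls and the test were also run on simulated data in which all genes had the same spread beyond counting error. Such data do not show how they behave on biopsies like these.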

Additional observations from a re-analysis of the deposited data

Results flagged for a closer look

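Dixon's rule for 9 values, which chance meets in about 1 of 20 groups, was applied to 64 sets of 9 and was met 5 times. The first library of cell 1 had 24.6% of its counts from the mitochondrial genome, against at most 4.91% in the other first biopsies. The difference of Fabp4 in cell 8, 6.67, was the highest of the 9. The highest differences of Dcn (1.90, cell 4), Tpm2 (0.46, cell 9) and Ccnd1 (0.96, cell 1) were likewise apart, each in a cell that was higher after while the other 8 were lower.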

How the results depend on the processing

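Genes called lower were 26 and became 16 with detection in 14 of 18 samples, 43 with a pseudocount of 10 CPM, 10 with DESeq2 size factors, 45 without a size limit and 4 with no replicate block (groups that do not overlap, which leaves 1 gene higher). Leaving out cells one at a time gave 28 to 55 genes lower and 4 to 8 higher. Without the cells that had a library under 3000 genes, an alternative chosen after seeing the data, there were 100 lower and 31 higher. Under the remaining alternatives both counts stayed within 1.5 times. All 4 and 26 genes kept the sign of their median under TMM, DESeq2 size factors, thinning and a pseudocount of 10 CPM. A pseudocount cannot change a sign, and the genes were chosen in these same data for signs that agreed. The kept signs are therefore no support for the calls.

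Pair resemblance missed the threshold of 0.05 under all alternatives run (exact p 0.355 to 0.984), its sign turning with Spearman's correlation (0.00245) and without cell 2, 7 or 9 (0.002, 0.019 and 0.0006). Leaving out single cells gave -0.022 to 0.019. The 9 pairs limit what the test can show, and a missed threshold does not show that pairs do not resemble each other. Genes below about 100 CPM are damped by the pseudocount. With 10 CPM the median of all genes moved from -0.09 to -0.29, and 31 differences of single genes grew by more than their SD. The median of all genes was -0.03 with TMM and -0.003 with DESeq2 size factors.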
